A study of Mus musculus with 2 samples.

Results

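The genes described here are 32 genes of synapses that use GABA or glycine: receptor subunits, the enzymes that make and break down GABA, the transporters that load vesicles and clear the transmitters, and the anchoring protein gephyrin. They were chosen by gene symbol from a list that was drawn up with earlier results of these data known. The rule itself uses no measured difference, and all 32 were found among the 47644 genes of the table. RNA came from whole eyeballs of C57BL/6 mice, with 1 sample from control mice and 1 from mice put through oxygen-induced retinopathy (OIR), a model of retinal vessel disease in newborns. For OIR, pups entered a closed hyperoxia chamber at day 7, stayed there for 5 days and then returned to room air, and eyes were collected at day 17. For the control the labels name no treatment and no separate collection day, and for neither sample do they say how many eyes, animals or sexes stand behind each sample. The series asks what lies behind lasting loss of visual function after OIR.

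GABA and glycine are the main inhibitory transmitters of the inner retina. Amacrine cells release one or the other onto bipolar cells, ganglion cells and each other, and horizontal cells use GABA in the outer retina. GABA-A and glycine receptors are chloride channels built from subunits of one family, the rho subunits form slow GABA channels best known from bipolar cell terminals, and GABA-B receptors act through G proteins.

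Reads counted in genes numbered 15741235 for the control and 20378793 for OIR. Levels are given as FPKM, which allows genes of different length to be set side by side. A difference is that of log2(FPKM + 1), OIR minus control, and is smaller in size than the log2 ratio where FPKM is low. A ratio is the share of reads in OIR divided by the share in the control, and the range in brackets after it is its exact 95% interval (Clopper-Pearson), which covers counting error only. The 15883 genes that reached an FPKM of 1 in the control or in OIR are called tested genes, a name for this filter and not for a statistical test. Each group is 1 library, and the differences below therefore lack any replicate check. Whole-eyeball RNA also moved in other respects between the libraries: the 18 lens markers together had a ratio of 0.746 (0.745 to 0.747), and the 12 surface epithelium markers together one of 3.18 (3.12 to 3.25). Over all tested genes the median difference was 0.11.

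Nearly every tested member had a lower level in OIR. Of the 27 tested members 26 lay below 0 and 1, Gphn, above, and their median difference was -0.35. Among all tested genes 35.1% lay below 0. With the authors' scaling factors 51.2% of all tested genes and the same number of tested members, 26 of 27, lay below 0. Gabrg1 and Glra4 were tested only through their control level. Over the 30 members with reads in both libraries, whatever their level, 28 had a ratio below 1 and 2 above it, with a median ratio of 0.744. Among all 22320 genes with reads in both libraries, 8267 had a ratio below 1 and the median ratio was 1.10. Fewer cells of a type and less RNA per cell cannot be told apart in such bulk samples.

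The size of the difference was modest for most members. On the log2 scale 3 tested members, Gabra4, Glra2 and Gad1, were at least 1.5-fold lower and none was at least 1.5-fold higher, where 2.58% and 9.11% of all tested genes passed these sizes. Only Gabra4 was at least 2-fold lower, as were 0.718% of all tested genes. By the read-share ratio, which has no pseudocount, 8 members were at least 1.5-fold lower, against 4.62% of all tested genes: Gabra4, Gabrg1, Gabrg3, Gabrr2, Glra1, Glra2, Glra3 and Gad1. Counting intervals lay wholly below 1 for 21 of the 27 tested members and for 14.7% of all tested genes, and wholly above 1 for Gphn and for 36.7% of all tested genes.

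**Figure D1:**
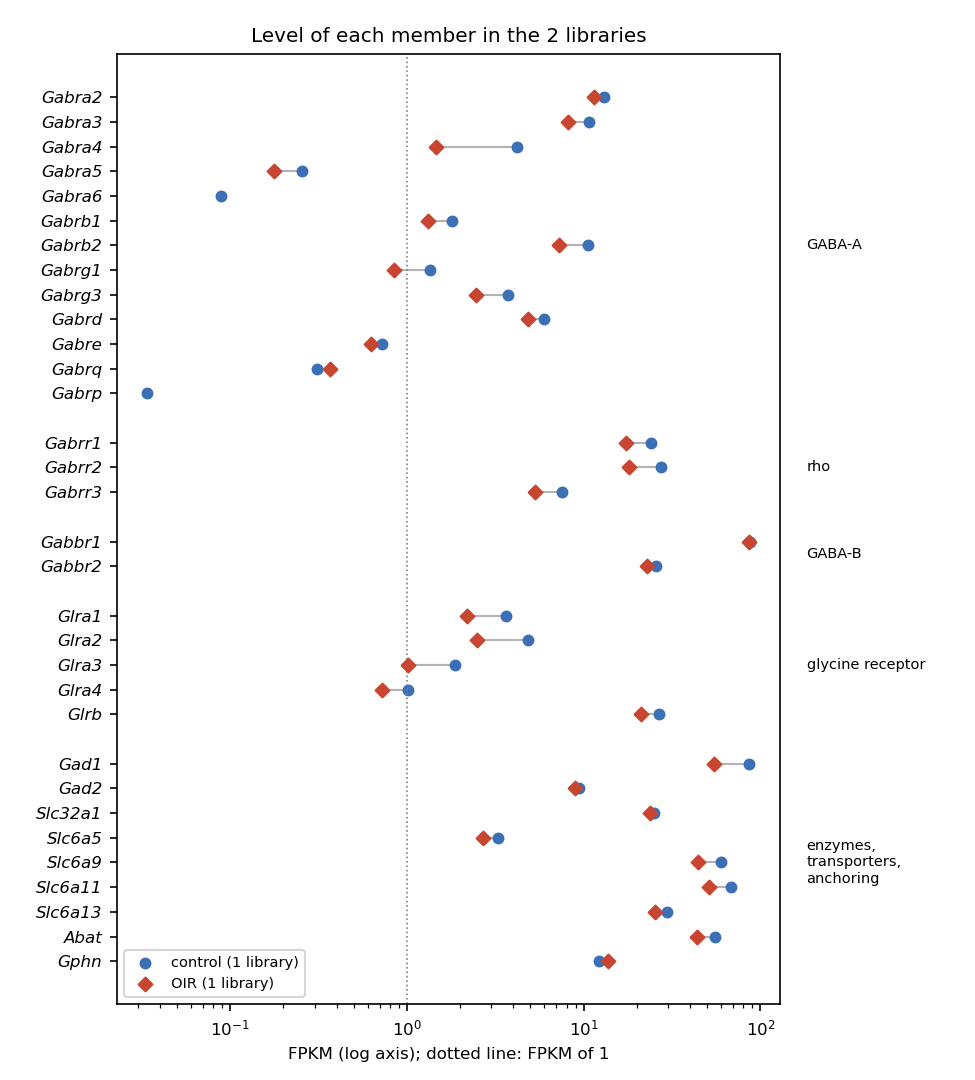
FPKM of each of the 32 members on a log axis, with a circle for the control library and a diamond for the OIR library, grouped by role. The diamond lies left of the circle for every member drawn in both libraries except Gabrq and Gphn, and Gabra6 and Gabrp have no diamond because no read was counted in OIR.

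Levels spanned a wide range in both libraries. The 6 members with the highest FPKM, Gabbr1, Gad1, Slc6a11, Slc6a9, Abat and Slc6a13, came in this order in the control and in OIR. At the other end, 5 subunit genes stayed below an FPKM of 1 in both libraries. Gabre had 26 reads in the control and 29 in OIR, and Gabra5 had 10 and 9. Gabrq, which encodes the theta subunit, had 17 and 26 reads, with a ratio of 1.18 (0.617 to 2.32). Gabra6, the alpha 6 subunit known from cerebellar granule cells, had 3 reads in the control and 0 in OIR, and Gabrp, the pi subunit of epithelia, had 1 and 0. Both lie at or under the limit of 3 reads, and no fold is given for them.

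Glycine receptor subunits were the receptor class with the lowest median difference, -0.51 over 5 tested genes, all below 0. Pooled, their reads had a ratio of 0.702 (0.646 to 0.762), close to the 0.703 (0.655 to 0.755) of the rho genes. The alpha subunits Glra1 to Glra4 bind glycine, and Glrb encodes the beta subunit that ties the receptor to gephyrin. Glra2 (ENSMUSG00000018589, chromosome X, 165129017 to 165327393, minus strand) had 241 reads in the control and 159 in OIR, or 4.86 and 2.48 FPKM. Its ratio of 0.510 (0.414 to 0.625) was the second lowest of all members with reads in both libraries, after Gabra4. Glra3, the alpha 3 subunit (chromosome 8, 55940460 to 56125429), stood at 1.86 FPKM in the control and 1.01 in OIR, a ratio of 0.541 (0.377 to 0.770). Glra1, the alpha subunit of adult spinal cord (chromosome 11, 55514238 to 55608198), stood at 3.643 and 2.199 FPKM, a ratio of 0.604 (0.455 to 0.798). Glra4 had only 27 and 25 reads, and its ratio of 0.715 has an interval that includes 1 (0.398 to 1.28).

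Glrb was the most abundant glycine receptor gene in both libraries and differed less than most of the alpha subunits. It stood at 26.6 FPKM in the control and 21.2 in OIR, a ratio of 0.796 (0.719 to 0.882). The ratio of 2 such ratios does not depend on how the libraries are scaled, so it compares members with each other directly. For Glra2 over Glrb it was 0.640 (0.508 to 0.805), and for Glra3 over Glrb 0.679 (0.467 to 0.983). For Glra1 over Glrb it was 0.758, with an interval that includes 1 (0.561 to 1.02). The 4 alpha subunits summed to 11.4 FPKM in the control and 6.41 in OIR. Within that sum the make-up was close in both libraries, with Glra2 at 42.7% and 38.6%, Glra1 at 32.0% and 34.3%, Glra3 at 16.4% and 15.7% and Glra4 at 8.92% and 11.3%.

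The stretches just upstream of the start sites of glycine receptor genes are shown because the genes share a family and a direction here. RefSeq promoter windows on GRCm38.p6, the same build as mm10, matched 29 of the 32 members by symbol, with 38 windows in all. Each line below gives the 250 bases before the start, 5′ to 3′ on the gene's strand, for every matched window of a glycine receptor gene that holds no exon of the GENCODE M21 annotation. Capitals mark the motifs searched, read on both strands: TATAAA, the TATA box, GGGCGG, the GC box bound by Sp1, and ACGTG, the core of hypoxia response elements.
Glra2, chrX:165327394-165327643, minus strand: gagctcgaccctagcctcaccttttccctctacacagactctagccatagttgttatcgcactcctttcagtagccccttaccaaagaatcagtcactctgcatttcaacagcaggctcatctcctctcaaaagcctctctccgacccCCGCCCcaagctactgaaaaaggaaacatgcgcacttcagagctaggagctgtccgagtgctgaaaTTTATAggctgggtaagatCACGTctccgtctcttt
Glra3, chr8:55940168-55940417, plus strand: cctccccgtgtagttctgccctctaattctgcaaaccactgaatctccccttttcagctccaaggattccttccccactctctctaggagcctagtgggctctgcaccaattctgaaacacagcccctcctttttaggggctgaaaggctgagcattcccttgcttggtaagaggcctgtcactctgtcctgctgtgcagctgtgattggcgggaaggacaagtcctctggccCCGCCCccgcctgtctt
Glrb, chr3:80913661-80913910, minus strand: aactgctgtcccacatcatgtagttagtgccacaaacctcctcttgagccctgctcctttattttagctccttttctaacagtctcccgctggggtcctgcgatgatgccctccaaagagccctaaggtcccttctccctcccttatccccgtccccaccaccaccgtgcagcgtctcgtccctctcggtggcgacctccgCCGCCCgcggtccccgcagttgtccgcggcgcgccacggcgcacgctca

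Each of the 3 windows holds 1 GC box, and the motifs do not overlap within them. Glra2 has the TATA letters on the other strand, from 36 to 31 bases before its start, and a CACGT, the reverse of the hypoxia core, from 17 to 13 bases before it. GC content was 62.4% in the Glrb window, with 20 CpG, and 50.4% in the Glra2 window, with 8. Among all 38 member windows 17 hold the GC box, 8 the hypoxia core and 5 the TATA box, where 32.7%, 16.6% and 12.4% of all 32851 windows of this length do. Searched in the same way, GCCNNNGGC, the site of AP-2 factors, is in 6 member windows and in 13.7% of all windows, and TAATCC, the core read by Crx and Otx factors, in 5 and in 6.25%. The first and last stretches of the RE1 silencer element, TTCAGCACC and GGACAGCGC, are in 0 and 1 of the 38 windows, the latter that of Gad2, and in 0.301% and 0.304% of all windows. These matches describe the letters of the windows only.

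The rho subunits had closely similar ratios. Gabrr1 and Gabrr2 lie side by side on chromosome 4, 36.7 kb apart on the same strand, and Gabrr3 is on chromosome 16. Gabrr1 (33132521 to 33163588) stood at 23.9 FPKM in the control and 17.4 in OIR, a ratio of 0.728 (0.661 to 0.803). Gabrr2 (33062999 to 33095865) was the more abundant in both libraries, with 27.2 and 18.1 FPKM, which is a ratio of 0.665 (0.587 to 0.753). Gabrr3 stood at 7.52 and 5.27 FPKM, a ratio of 0.701 (0.569 to 0.864). Set against Gabrr1, the ratio of ratios was 0.913 (0.779 to 1.07) for Gabrr2 and 0.963 (0.764 to 1.21) for Gabrr3. Gabrr3 over Gabrr2 gave 1.05 (0.826 to 1.35), so that no pair of the 3 differed detectably at this depth. Each made up nearly the same part of the rho sum in the control and in OIR, 40.7% and 42.7% for Gabrr1, 46.4% and 44.4% for Gabrr2 and 12.8% and 12.9% for Gabrr3. Reads of the 3 rho genes pooled had a ratio of 0.703 (0.655 to 0.755). Bipolar cell markers, given here because rho receptors are best known from these cells, had a pooled ratio of 0.878 (0.865 to 0.892). Of these markers 13 of 16 lay below 0, with a median difference of -0.20 and a range from -0.78 for Scgn to 0.20 for Bhlhe23. The rho reads were lower than the bipolar marker reads by a ratio of ratios of 0.801 (0.745 to 0.861). What part a change in bipolar cells has in the rho values was not tested.

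Of the 13 other GABA-A subunit genes, 8 were tested and all 8 lay below 0, with a median difference of -0.36. A cluster on chromosome 5 holds Gabrg1, Gabra2, Gabra4 and Gabrb1, and the members of this cluster differed widely in ratio. Gabra4, the alpha 4 subunit of receptors outside synapses (ENSMUSG00000029211, 71569749 to 71658308, minus strand), had 145 reads in the control and 65 in OIR, or 4.22 and 1.46 FPKM. Its ratio of 0.346 (0.254 to 0.467) was the lowest among members with reads in both libraries. Gabrb1, a beta subunit gene that starts head to head with Gabra4 (71658113 to 72149037, plus strand), had 205 and 194 reads and a ratio of 0.731 (0.598 to 0.894). The spans of the pair overlap by 196 bases in the table, and their GENCODE M21 exons share 46 bases. Gabra2, an alpha subunit of synaptic receptors (70957597 to 71095849), stood at 13.1 FPKM in the control and 11.5 in OIR, a ratio of 0.877 (0.780 to 0.985).

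Gabra4 differed from its neighbours in this cluster beyond counting error. The ratio of ratios was 0.395 (0.284 to 0.546) against Gabra2 and 0.474 (0.327 to 0.683) against Gabrb1. Per length, of the summed FPKM of the 5 alpha members, 28.4 in the control and 21.2 in OIR, Gabra4 made up 14.9% and 6.88%. Gabra2 made up 46.1% and 54.1%, and Gabra3 37.8% and 38.2%. Gabra3, on chromosome X between Gabre and Gabrq, stood at 10.7 and 8.11 FPKM, a ratio of 0.757 (0.648 to 0.883). Its ratio of ratios over Gabra2 was 0.863, with an interval that includes 1 (0.710 to 1.05).

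The remaining tested GABA-A genes lay between these. Gabrb2, a beta subunit gene on chromosome 11, stood at 10.6 FPKM in the control and 7.22 in OIR, a ratio of 0.678 (0.575 to 0.8004). Gabrg3 and Gabrg1 encode gamma subunits. Gabrg3, 20.5 kb from Gabra5 on chromosome 7, had 3.74 and 2.47 FPKM and thus a ratio of 0.660 (0.549 to 0.794). Gabrg1 had 69 and 56 reads and a ratio of 0.627 (0.433 to 0.905). Gabrd, the delta subunit that often pairs with alpha 4 outside synapses, had 159 and 166 reads. Its ratio of 0.806 (0.645 to 1.01) has an interval that includes 1, unlike that of Gabra4. Reads of all 13 genes pooled had a ratio of 0.736 (0.692 to 0.783).

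GABA-B receptor genes differed least among the receptor classes. Both subunits are needed for a working receptor: Gabbr1 carries the GABA site and Gabbr2 couples to the G protein. Gabbr1 (chromosome 17, 37045966 to 37075067) was the most abundant member and stood at 87.2 FPKM in the control and 86.2 in OIR, a ratio of 0.989 (0.938 to 1.04). Gabbr2 (chromosome 4, 46662305 to 46991873) stood at 25.8 and 22.8 FPKM, a ratio of 0.882 (0.806 to 0.965). On the log2 scale the difference of Gabbr1 was -0.02 as deposited and -0.15 with the authors' scaling factors. The ratio of ratios of Gabbr1 over Gabbr2 was 1.12 (1.01 to 1.25). Their auxiliary subunits, the KCTD proteins, had a median difference of 0.03 over 4 genes, from -0.15 for Kctd8 to 0.37 for Kctd12.

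**Figure D2:**
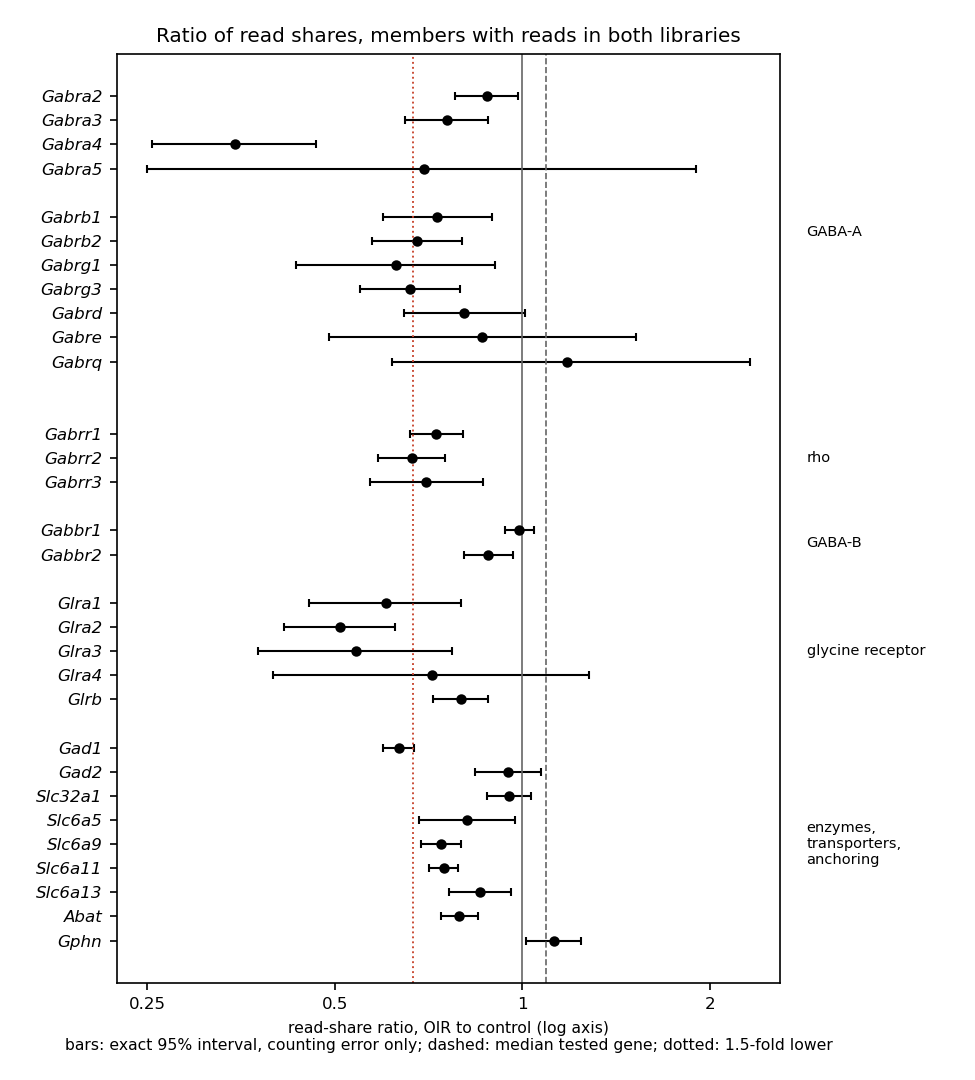
Read-share ratio of OIR to control for the 30 members with reads in both libraries, on a log axis, with exact 95% intervals for counting error. The dashed line is the median tested gene at 1.09, the solid line is 1 and the dotted line marks 1.5-fold lower. The 3 rho genes lie close together, Gabra4 lies farthest to the left, and Gabbr1, Gad2 and Slc32a1 lie next to 1 at the deposited scaling.

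The enzymes and the vesicle transporter of inhibitory neurons did not share 1 ratio. Gad1 and Gad2 encode the glutamate decarboxylases that make GABA, GAD67 and GAD65, and Slc32a1 encodes the carrier that loads both GABA and glycine into vesicles. Gad1 (ENSMUSG00000070880, chromosome 2, 70553072 to 70602014) had 2611 reads in the control and 2141 in OIR, or 86.1 and 54.5 FPKM, a ratio of 0.633 (0.598 to 0.671). Gad2 (chromosome 2, 22622205 to 22693874) stood at 9.39 and 8.91 FPKM, a ratio of 0.949 (0.839 to 1.07). Slc32a1 (chromosome 2, 158610767 to 158615748) stood at 24.96 and 23.77 FPKM, a ratio of 0.952 (0.879 to 1.03). The intervals of Gad2 and Slc32a1 include 1. With the authors' scaling factors their differences, -0.07 each as deposited, were -0.19 and -0.20.

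Gad1 stood apart from both by more than counting error. Its ratio of ratios was 0.668 (0.583 to 0.765) over Gad2 and 0.665 (0.602 to 0.734) over Slc32a1, while Gad2 over Slc32a1 gave 0.996 (0.860 to 1.15). Per length, Gad1 made up 90.2% of the summed FPKM of the decarboxylases in the control and 86.0% in OIR. Amacrine cell markers are given here because these neurons carry most retinal GAD and the vesicle carrier. Their median difference was -0.15, with 13 of 18 below 0, from -0.82 for Vip to 0.37 for Nfix. By ratio Vip at 0.445, Th at 0.585 and Calb2 at 0.609 (0.582 to 0.637) lay under Gad1. The interval of Th includes 1 (0.334 to 1.01), and 5 of the 18 markers had a ratio above 1. Th and Calb2 are named with their values known. All 18 had reads in both libraries, and their summed level was 704 FPKM in the control and 617 in OIR. Pooled, their ratio was 0.882 (0.865 to 0.898). What part a change in amacrine cells has in the Gad1 value was not tested. Of the bases in Slc32a1 exons, 24.9% also lie in an antisense gene, Gm14205, which had 2 reads in the control and 0 in OIR.

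All 4 plasma membrane transporters and the GABA-degrading enzyme were lower in OIR, with intervals wholly below 1. Slc6a9 encodes GlyT1, which clears glycine and is found in glycinergic amacrine cells, and stood at 60.0 FPKM in the control and 44.4 in OIR, a ratio of 0.741 (0.687 to 0.798). Of the bases in its exons, 27.8% also lie in exons of Ccdc24 on the other strand. Ccdc24 had 270 and 317 reads, against 1434 and 1375 for Slc6a9. Slc6a5 encodes GlyT2, the transporter of glycinergic terminals in the spinal cord and brainstem, and stood at 3.29 and 2.69 FPKM, a ratio of 0.816 (0.683 to 0.975). The ratio of ratios of Slc6a9 over Slc6a5, 0.907, has an interval that includes 1 (0.748 to 1.10).

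Slc6a11 encodes the GABA transporter GAT3 of glia, which in the retina is found in Müller and amacrine cells. It stood at 68.5 FPKM in the control and 51.2 in OIR, a ratio of 0.748 (0.709 to 0.789). Slc6a13 encodes GAT2, a GABA and taurine transporter known from meninges and other barrier tissues. It stood at 29.8 and 25.5 FPKM, a ratio of 0.856 (0.763 to 0.961). Slc6a11 was lower relative to Slc6a13, with a ratio of ratios of 0.873 (0.769 to 0.992). Abat, the mitochondrial GABA transaminase (chromosome 16, 8513429 to 8621568), stood at 55.0 and 43.6 FPKM, a ratio of 0.793 (0.740 to 0.850). Müller glia markers had a median difference of -0.12 over 12 genes, with 7 below 0 and a range from -0.79 for Glul to 1.48 for Crym. Their pooled ratio was 0.815 (0.807 to 0.823). Fibroblast and meninges markers had a median of 0.28 over 9 tested genes, from -0.70 to 0.59. Pooled over all 10, their ratio lay on the other side of 1, at 0.933 (0.915 to 0.951). Ptgds, with a ratio of 0.761 (0.742 to 0.782), held 11165 of the 18676 pooled reads in the control and 11005 of the 22548 in OIR. Of the 9 tested genes, 5 had intervals wholly above 1 and 3 wholly below. The part of these cells in the transporter values was not tested.

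Gphn was the 1 tested member with a higher level in OIR. It encodes gephyrin, the scaffold that holds glycine receptors and many GABA-A receptors at the synapse and also makes molybdenum cofactor in other tissues. Gphn (chromosome 12, 78226655 to 78684767) had 632 reads in the control and 919 in OIR, or 12.2 and 13.7 FPKM, a ratio of 1.12 (1.01 to 1.24). That is near the ratio of the median tested gene, 1.09, and its difference of 0.16 was 0.03 with the authors' scaling factors and 0.0049 when centred within bins of transcript length. Set against the receptor subunits, Gphn was higher, with a ratio of ratios of 1.41 (1.22 to 1.63) over Glrb and 1.28 (1.10 to 1.498) over Gabra2.

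**Figure D3:**
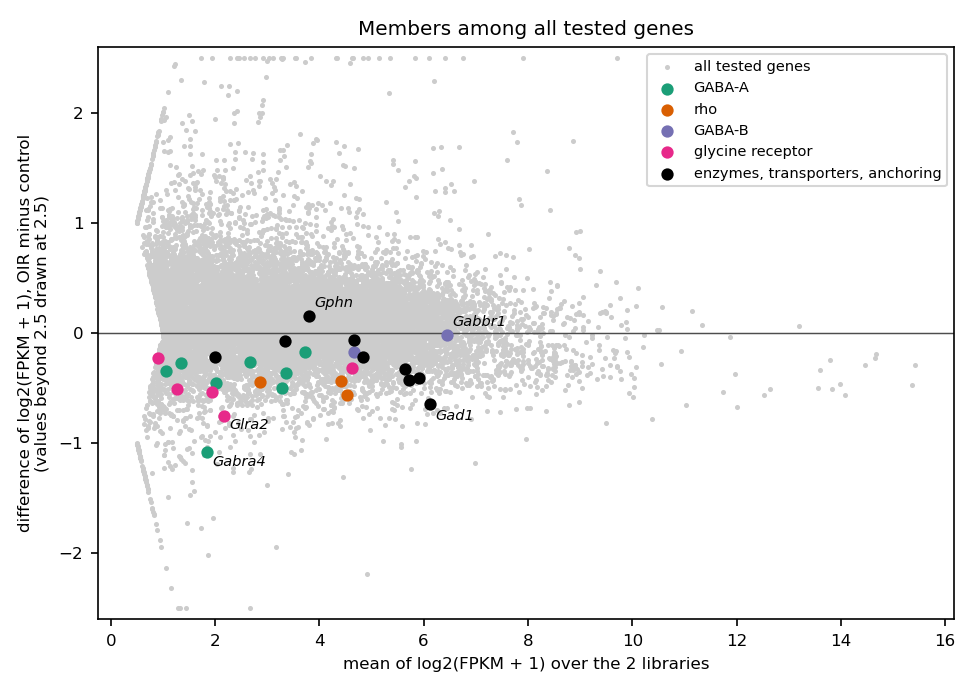
Difference of log2(FPKM + 1), OIR minus control, against the mean level of both libraries for all 15883 tested genes in grey, with the 27 tested members coloured by role. The members lie in the lower part of the cloud at low and at high levels, from Gabra4 at -1.08 to Gphn at 0.16.

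Across the 27 tested members the difference was weakly related to the level in the control, with a Spearman's rank correlation of 0.153, and the read-share ratio was higher in members of higher summed level, with a rank correlation of 0.510. The summed level is made of the same values as the ratio, so these axes are not independent. The correlations also use different measures of change and of level and cannot be compared with each other. They are descriptions across genes that share the same libraries. The median transcript length implied by counts and FPKM was 2182 bases for tested members and 1809 for all tested genes, and the members' ratio had a rank correlation of 0.0128 with length.

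Other genes of the pathway, from a list of 34 chosen by function, lay around 0. All 34 were tested, and 22 lay above 0 and 12 below, with a median difference of 0.05. With the authors' scaling factors 12 lay above 0 and 22 below. The median is under that of all tested genes, 0.11, and is -0.06 when differences are centred on all tested genes. By size 1 gene was at least 1.5-fold lower and 1 at least 1.5-fold higher. The lowest was Slc6a12, the betaine and GABA transporter BGT1, at 5.10 FPKM in the control and 2.87 in OIR, a ratio of 0.563 (0.404 to 0.779). Gabarapl2, of the GABARAP family, was also among the 3 lowest, with a ratio of 0.842 (0.786 to 0.902).

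The highest of the 34 was Slc12a2, the chloride importer NKCC1, which raises chloride inside cells and is also active in secretory epithelia. It stood at 9.85 FPKM in the control and 15.9 in OIR, a ratio of 1.61 (1.49 to 1.74). Slc12a5, the neuronal chloride exporter KCC2, stood at 212 and 229 FPKM, a ratio of 1.08 (1.05 to 1.11). Slc12a5 is named for its role, with its values known, and its difference of 0.11 turned to -0.03 with the authors' scaling factors and to -0.04 when centred within length bins. The ratio of ratios of Slc12a5 over Slc12a2 was 0.670 (0.617 to 0.726). Surface epithelium markers stood beside the Slc12a2 value with differences from 0.92 to 2.49 in all 11 tested genes, and their part in it was not tested. Shmt2, a mitochondrial enzyme that makes glycine from serine, had a ratio of 1.51 (1.36 to 1.67). The 7 adhesion and scaffold genes of inhibitory synapses, Nlgn2 among them, had a median difference of 0.03, and the 8 receptor trafficking genes one of -0.01.

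Glutamate receptor genes, the excitatory counterpart, differed less. Of 23 genes 21 were tested, 14 of them below 0, or 17 with the authors' scaling factors, with a median difference of -0.08 as deposited. By the difference the lowest 3 were Grik1, a kainate receptor gene of OFF bipolar cells, at a ratio of 0.677 (0.615 to 0.745), Gria4 at 0.770 (0.709 to 0.837) and Grm8 at 0.752 (0.632 to 0.895). By the difference the highest 3 were Grik3 at a ratio of 2.03 (1.72 to 2.42), Gria1 at 1.25 (1.13 to 1.38) and Grin2d at 1.15 (0.964 to 1.37). By the ratio, Grin3a at 0.709 (0.556 to 0.903) and Grik4 at 1.22 (0.879 to 1.71) would also be among them, and both are named here with their values known. Reads of the glutamate receptor genes pooled had a ratio of 0.963 (0.941 to 0.986), and those of the 23 member receptor genes 0.815 (0.791 to 0.840). The ratio of ratios of the latter over the former was 0.847 (0.815 to 0.880). For the 5 glycine receptor genes against the glutamate receptors it was 0.728 (0.669 to 0.793), and for the 13 GABA-A genes without rho 0.764 (0.716 to 0.816).

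Reads of the 21 genes of channel-forming subunits, GABA-A, rho and glycine receptors, were also set against cell class markers. Gabbr1 and Gabbr2 are left out here because they held 3350 of the 8260 receptor reads of the control and 4163 of the 8720 of OIR. The channel subunits had a pooled ratio of 0.717 (0.688 to 0.747). Their ratio of ratios was 0.723 (0.694 to 0.753) over rod markers, 0.813 (0.778 to 0.850) over amacrine markers and 0.816 (0.782 to 0.852) over bipolar markers. Over ganglion cell markers it was 1.03, with an interval that includes 1 (0.984 to 1.08). With Gabbr1 and Gabbr2 included, the ratios of ratios of all 23 receptor genes were 0.822 (0.798 to 0.848) over rod markers, 0.925 (0.893 to 0.958) over amacrine markers, 0.928 (0.898 to 0.960) over bipolar markers and 1.17 (1.13 to 1.22) over ganglion cell markers.

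**Figure D4:**
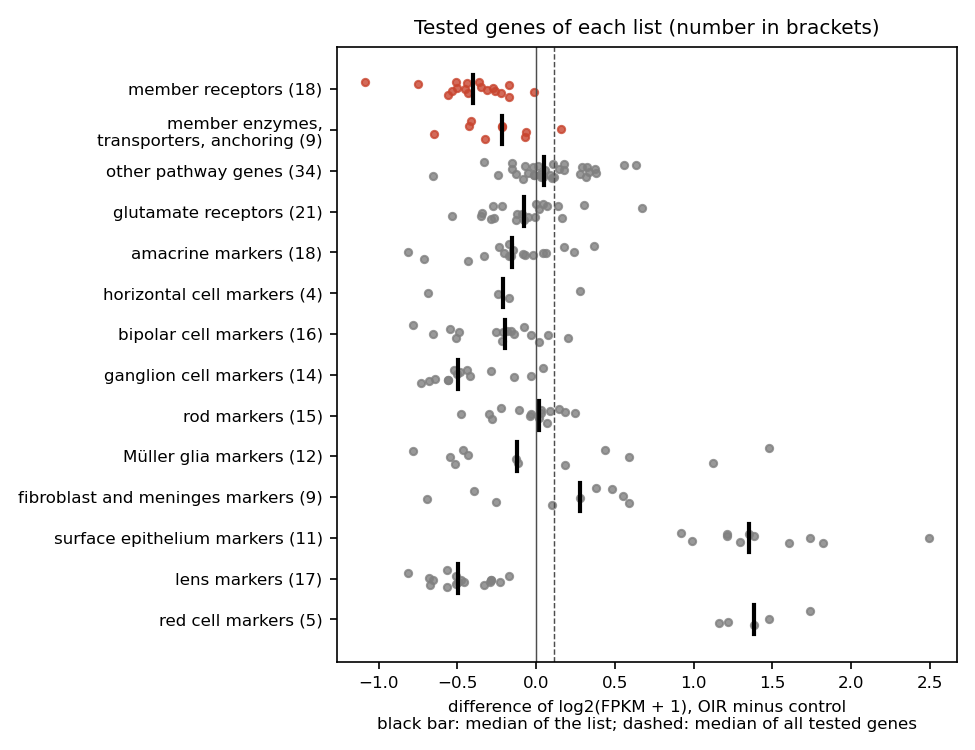
Difference of log2(FPKM + 1), OIR minus control, for the tested genes of each list, 1 point per gene, with the list's median as a black bar. Member receptors have a median of -0.40 and lie below 0 in all 18 cases, the other pathway genes and glutamate receptors lie around 0, and the median of ganglion cell markers is -0.49.

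Of 14 ganglion cell markers 13 lay below 0, with a median difference of -0.49 and a pooled ratio of 0.696 (0.680 to 0.712). Their differences ran from -0.73 for Sncg to 0.04 for Rbpms. Intervals lay wholly below 1 for 11 of them and included 1 for 3. Among these 3 were Rbpms, with a ratio of 1.03 (0.901 to 1.18), and Pou4f1, with 0.975 (0.857 to 1.11). Horizontal cell markers had no shared direction: over 4 tested genes the median difference was -0.21, from -0.69 for Calb1 to 0.28 for Tpm3, while the 3 under the filter had ratios from 1.43 to 1.62. Over all 7, 4 had a ratio above 1 and the median ratio was 1.21. Rod markers had a median of 0.02 over 15, with 7 below 0 and 8 above. Red cell markers were higher, with a median of 1.39 over 5. The part of these cell classes in the members' values was not tested.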

How the data were processed

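The members and gene lists were chosen with earlier results of these data known. The table gives raw read counts, FPKM and counts scaled by 1 factor per library, per the file headers. Bowtie2 2.2.3, TopHat2 2.0.12, HTSeq 0.6.1 and build mm10 are named in the submitters' processing notes. The annotation release, strand use in counting, filters and tool settings: not given in the sources used here. The FPKM values deposited by the authors are scaled to transcript length and library size. The scaled signal the authors deposited was used only to read off its factors, which shift log2 ratios by -0.14. After 5 broken lines were dropped, 47644 genes remained. The transcript length that count and FPKM together imply was equal in the control and in OIR, within 0.1%, for each of the 22320 genes that had reads in both.

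With 1 library per group no test was made, so depth and its intervals describe counting error only. Reads carry no molecular identifiers. Intervals are exact for read-share ratios, of single genes and of pooled lists, and for ratios of ratios of 18 pairs of genes (conditional odds ratio). Ratios of ratios between pooled lists have Wald intervals. A pseudocount of 1 and an FPKM filter of 1 were used, and a limit of 3 reads stands for 0. The named genes are all members, and the 3 highest and 3 lowest of the other pathway and of the glutamate receptor genes by difference. Of these, 2 pathway genes are not reported here. Where others are named, they were chosen for their role, as an end of a list's range, or with their values known. Motifs were chosen after the promoters were seen. Where a symbol repeated, the row with the highest summed FPKM was kept. 1 listed symbol was unmatched. Python 3.11.15, numpy, pandas and scipy 1.17.1 were used, and intervals were tested on simulated counts. Exon overlaps use GENCODE M21, matched to all 32 members by identifier.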

Additional observations from a re-analysis of the deposited data

How the results depend on the processing

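No paired analysis was possible because each group is 1 library, and no replicate could be left out. Under all 12 alternatives, 2 of them added after the data were seen (an FPKM filter on the mean of both libraries and the read-share ratio with no pseudocount), the median difference of member receptors lay between -0.52 and -0.32 and that of all tested members between -0.50 and -0.29. Of 468 values of single genes (the 27 tested members, and 13 other pathway and glutamate receptor genes named in the report), 465 kept their sign and 44 moved by more than the gene's counting error. The 3 exceptions were all of Slc12a5, among them -0.0042 when centred on all tested genes. The alternatives of pseudocount, filter, CPM and read-share ratio cannot change the sign of a gene. Only those that rescale or centre the libraries could do so, and most of the kept signs were therefore fixed in advance. The median of glutamate receptor genes, -0.08 as reported, ranged from -0.25 to -0.05. The median of the other pathway genes changed sign, from 0.05 to between -0.06 and -0.03, under centring on all tested genes, centring within length bins, the authors' scaling factors and totals without lens, red cell, surface epithelium and mitochondrial genes. The number of members at least 1.5-fold lower, 3 as reported, was 7 with a pseudocount of 0.1, 8 with 0.01 and 8 by read-share ratio, 1 with an FPKM filter of 5, 5 with CPM, 7 centred on all tested genes, 7 with the authors' factors, 6 with the reduced totals and 8 centred within 20 length bins. It was 3 under the other alternatives, and none was at least 1.5-fold higher under any of them. Depth limits Gabra5, Gabra6, Gabre, Gabrq, Gabrp and Glra4, each with under 60 reads in the libraries together.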
